A study of Macaca fascicularis with 10 samples.

Results

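The genes described are the chemokines, interleukins, TNF superfamily members and Toll-like receptors of a cynomolgus monkey (Macaca fascicularis) array study. They were taken by symbol: every gene whose annotated symbol begins with CCL, CCR, CXCL, CXCR, IL or TLR and a number, or with TNFSF or TNFRSF. That gave 146 of the 14132 genes with a probe set of a single symbol, and each gene was read from 1 probe set, the one whose log2 signal averaged highest over the 10 arrays. IL4I1, an amino acid oxidase, is included by its symbol alone. RNA from 3 kinds of cells was measured on Affymetrix arrays designed for the rhesus macaque. Haploid embryonic stem cells from parthenogenetic blastocysts (PG-haESCs), which carry no sperm genome, gave 5 arrays. PG-haESC 1 to 4 carry the line name MPH1 (passages 8, 11, 7 and 9), the first pair under code M1 and the second under code M2, and PG-haESC 5 is line MPH2 at passage 4. Embryonic stem cells (ESCs) of embryos fertilised through intracytoplasmic sperm injection (ICSI) gave 3 arrays, which are line MES1 at passage 12, MES2 at passage 4 and MES3 at passage 4. Cells labelled diploid female somatic fibroblasts gave 2 arrays, MF at passages 14 and 15 under 1 code. No agent or allele separates the groups in the labels. The labels give 1 growth protocol, for haploid cells kept on a feeder layer with Y27635 and Thiazovivin. Whether feeder cells were collected with the stem cells is not stated. Nothing says that arrays of 1 line came from separate cultures, so p-values measure the spread between these samples, which may be technical.

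Chemokines are small secreted proteins that attract cells bearing matching G protein-coupled receptors (CCR and CXCR). Interleukins and TNF superfamily ligands act through receptors that signal largely by JAK and STAT proteins or by TRAF adaptors and NF-kB, and Toll-like receptors sense microbial products and also signal to NF-kB. Most of these genes are studied in leukocytes and barrier tissues, but CXCL12 and its receptor CXCR4 also guide cells in the embryo, and skin cells store or secrete several cytokines of the interleukin-1 family.

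The arrays share the same trimmed mean signal. Array medians ran from 76.8 to 133. Spike-in control signal averaged 3930 to 11653, highest on PG-haESC 2 and next highest on ICSI ESC 1 (9107). All 8 measured markers of pluripotent cells were called higher in both ESC groups than on the arrays labelled fibroblast, with summed signals of 59948 to 91920 in PG-haESCs, 55802 to 72305 in ICSI ESCs and 630 to 817 in the labelled fibroblasts. The 9 measured fibroblast markers summed to 4807 to 41601 in PG-haESCs, 3869 to 132049 in ICSI ESCs and 181039 to 181846 on the arrays labelled fibroblast. Those 2 arrays also held all 9 measured keratinocyte markers above their medians, with a sum of 293418 to 294145, against 3302 to 3853 in PG-haESCs and 3940 to 4948 in ICSI ESCs. The 14 measured leukocyte markers summed to 874 to 1440 in PG-haESCs, 875 to 1561 in ICSI ESCs and 13877 to 14257 on the arrays labelled fibroblast, where the leukocyte markers LYZ (7273 and 6996), CPA3 (2620 and 2380) and PTPRC (1412 and 1441) were above the median and the B cell markers MS4A1 and CD79A at or under it. The 5 endothelial markers summed to 492 to 840 in PG-haESCs, 443 to 1087 in ICSI ESCs and 5149 to 5399 in the labelled fibroblasts. The 5 melanocyte markers summed to 125 to 253 in PG-haESCs, 176 to 265 in ICSI ESCs and 1341 to 1536 in the labelled fibroblasts. The part of these other markers in the comparisons with the labelled fibroblasts was not tested.

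Of the 146 genes, 103 were tested because their signal passed the median of their own array on at least 2 arrays. The others number 43, and 31 of them were above the median on no array, among them TLR2, TLR3, TLR6, TLR8 and TLR10, IL4, IL5, IL13, IL17A, CCR1, CCR2 and CCR4. The files hold no detection calls, so a signal under the array median is not shown to be background. A further 29 genes were above the median on all 10 arrays. By family, 16 of 21 CCL, 3 of 8 CCR, 6 of 9 CXCL and 2 of 3 CXCR genes were tested, with 24 of 37 interleukin ligands and 27 of 34 interleukin receptors or binding proteins. In the TNF superfamily 7 of 9 ligands and 12 of 14 receptors were tested, and 5 of 10 Toll-like receptors. Since probe sets differ in brightness for reasons other than RNA, signals were compared between arrays and not between genes. In bulk RNA, fewer cells of a type and less RNA per cell cannot be told apart.

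Setting PG-haESCs against ICSI ESCs, no chemokine, cytokine or receptor gene passed the threshold used, a limma p adjusted over all probe sets of under 0.05, past which a gene is written here as called. Of all genes tested, 0.576% were called in that comparison. At an unadjusted p under 0.05 there were 8 of the 103 genes (7.77%, against 8.79% of all genes tested). The 5 and 3 arrays did not overlap for CXCL12, IL10 and IL1RAPL1, the 3 genes higher in PG-haESCs (2.91%, against 5.07% of all genes), and 3 lower (2.91%, against 3.22% of all genes), which were IL17RC, TLR7 and TNFRSF12A. IL1RAPL1 had passed the filter only through PG-haESC arrays, where it is high, so its separation supports nothing (unadjusted limma p 0.18). The median log2 change was -0.09, beside -0.02 over all genes tested.

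The gene nearest to a call was CXCL12, the secreted ligand of CXCR4. Its signal was 880, 583, 1259, 1108 and 1094 on PG-haESC 1 to 5, against 375, 303 and 437 on ICSI ESC 1 to 3 and 880 and 1049 on the arrays labelled fibroblast. Every PG-haESC array lay above every ICSI ESC array, and the labelled fibroblasts lay within the PG-haESC range. The log2 change between PG-haESCs and ICSI ESCs was 1.40 ± 0.30 (SE), with an adjusted p of 0.078. It passed the threshold with arrays taken as independent samples (adjusted p 0.018), with the description code as the block (0.032), with no filter (0.0496), without PG-haESC 2 (0.034) and without the 2 arrays of highest spike-in signal (0.016). Under the other 19 alternatives it did not, with adjusted p values from 0.057 without ICSI ESC 1 to 0.93 with probe sets of a gene averaged, where the change was 0.77. The other tested probe sets of CXCL12 gave log2 changes of 1.03 (adjusted p 0.94) and -0.10 (adjusted p 1.0).

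CXCR4 itself varied several-fold within each ESC group. It read 784, 2597, 335, 171 and 756 on PG-haESC 1 to 5, against 1652, 4266 and 1117 on the ICSI ESC arrays, and 230 and 236 on those labelled fibroblast. All but 1 of the PG-haESC arrays were below every ICSI ESC array, PG-haESC 2 being the exception. The log2 change between the ESC groups was -1.65 ± 0.88, with a 95% interval of -3.55 to 0.26 and an adjusted p of 0.79. PG-haESC 1 and 2 of code M1 read 784 and 2597, and PG-haESC 3 and 4 of code M2 read 335 and 171.

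TNFRSF12A, the receptor of the cytokine TWEAK, had a signal of 4016, 2952, 3457, 5723 and 2915 in PG-haESCs, against 5889, 7492 and 11151 in ICSI ESCs and 1672 and 1771 in the labelled fibroblasts. The 3 groups did not overlap, with PG-haESCs in the middle. The change from ICSI ESCs was -1.15 ± 0.28 (adjusted p 0.14), and it passed the threshold without ICSI ESC 1 (adjusted p 0.04) and with arrays taken as independent (0.0471). IL10, an anti-inflammatory interleukin, read 1910, 2010, 2124, 1188 and 1038 in PG-haESCs and 739, 828 and 697 in ICSI ESCs, with 1247 and 1331 in the labelled fibroblasts. PG-haESC 1 to 3 were above the labelled fibroblasts, and PG-haESC 4 and 5 lay between them and the ICSI ESC arrays. The log2 change between the ESC groups was 0.99 ± 0.28 (adjusted p 0.22), and 1.08 with an adjusted p of 0.0487 with arrays taken as independent. The other probe set of IL10 did not pass the filter.

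TNFRSF19, a TNF receptor family member also called TROY, had 1422, 646, 1781, 1693 and 2602 in PG-haESCs, against 689, 673 and 844 in ICSI ESCs. PG-haESC 2 lay below the ICSI ESC arrays and the other 4 above them. The log2 change was 1.14 ± 0.40 (adjusted p 0.43), and the gene passed the threshold without PG-haESC 2 (log2 change 1.42, adjusted p 0.034) and without the 2 arrays of highest spike-in signal (1.33, adjusted p 0.026). TLR7, an endosomal sensor of single-stranded RNA, read 7841 to 8383 on the 5 PG-haESC arrays and 9643 to 11452 on the 3 ICSI ESC arrays. The ranges did not overlap, the difference was -0.37 ± 0.13 (adjusted p 0.42), and a second tested probe set differed in the other direction (0.41, adjusted p 0.75).

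The remaining genes with an unadjusted p under 0.05 had low signals. TNFRSF25, a death domain receptor of the TNF family, read 83.5 to 155 in PG-haESCs and 18.9 to 90.3 in ICSI ESCs (log2 change 1.49 ± 0.53, adjusted p 0.44). IL9R, the receptor of interleukin-9, read 105 to 269 in PG-haESCs and 17.3 to 125 in ICSI ESCs (1.75 ± 0.69, adjusted p 0.54), while its second probe set showed -0.00. IL17RC, a subunit of the interleukin-17 receptor, read 65.6 to 160 in PG-haESCs, against 165 to 257 in ICSI ESCs (-1.02 ± 0.42, adjusted p 0.59). Only for IL17RC did the 2 groups stand apart, by a narrow gap. On a second IL17RC probe set the groups overlapped, with a log2 change of -0.14.

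**Figure D1:**
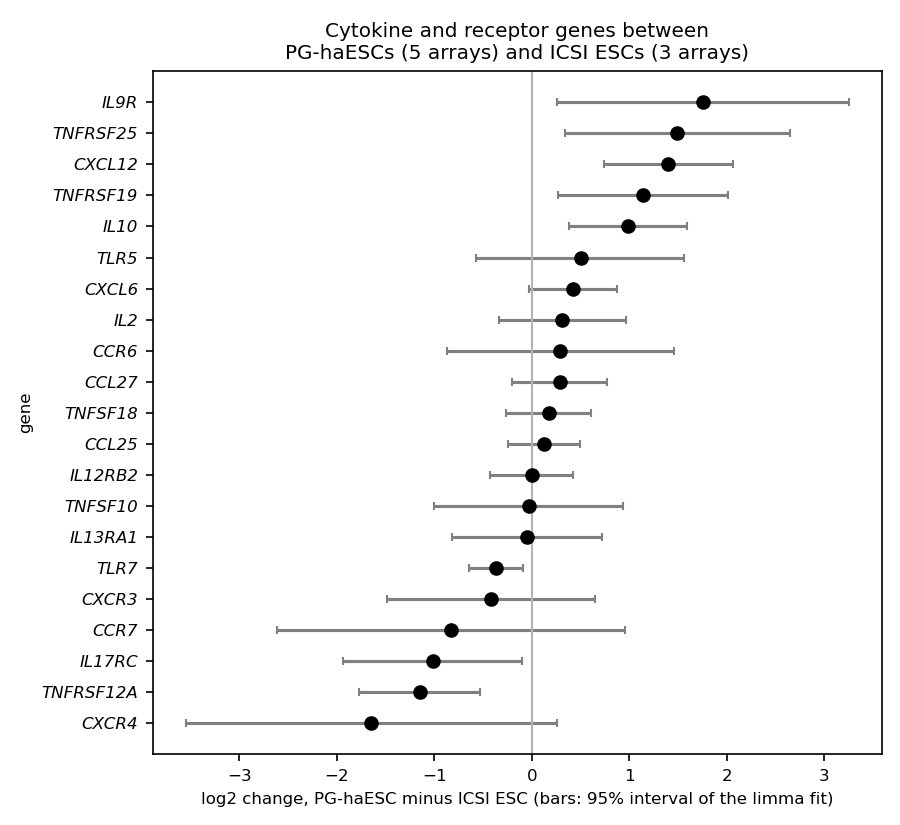
Log2 change in signal of 21 cytokine and receptor genes, PG-haESC (5 arrays) minus ICSI ESC (3 arrays), with points for the fitted changes and bars for 95% intervals not adjusted for the number of genes. The 8 genes with an unadjusted p under 0.05, among them CXCL12, TNFRSF12A and IL10, have intervals clear of 0, and CXCR4 (-3.55 to 0.26) has one of the widest.

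For several genes with signal on every array the interval of the difference between PG-haESCs and ICSI ESCs was narrow. IL12RB2, a subunit of the interleukin-12 receptor, had a 95% interval of -0.43 to 0.42, and CCL25, a chemokine of thymus and gut, one of -0.25 to 0.49. TNFSF18, the ligand of the T cell receptor GITR, had -0.27 to 0.61, and CXCL6, a neutrophil chemokine, had -0.03 to 0.87. The intervals of CCL27 (-0.20 to 0.77), IL2 (-0.34 to 0.96) and IL13RA1 (-0.82 to 0.72), a shared receptor subunit for interleukins 4 and 13, reached further. Those of the receptors CCR6 (-0.87 to 1.46), CCR7 (-2.61 to 0.95), CXCR3 (-1.49 to 0.65) and TLR5 (-0.57 to 1.56) were wider still.

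A few genes differed widely among the ESC arrays. The 5 genes IL6, CCL2, CXCL8, TNFRSF11B and IL1B spanned more than 5 log2 units over the 8 ESC arrays, out of 67 cytokine and receptor genes above the median on at least 4 of those arrays (7.46%). The same held for 75 of 10017 genes in all (0.749%). These 5 were chosen after their values were seen. The median span was 1.78 log2 units for the 67 genes and 1.07 for all.

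IL6, a broad-acting inflammatory cytokine, had a signal of 104, 666, 111, 656 and 466 on PG-haESC 1 to 5, against 18888, 39 and 506 on ICSI ESC 1 to 3 and 99.4 and 60.2 on the arrays labelled fibroblast. ICSI ESC 1 was 28.4 times the next ESC array, and ICSI ESC 2 was the lowest of all 10. A second IL6 probe set read 80.2, 411, 89.7, 632 and 231 in PG-haESCs and 22136, 49.7 and 689 in ICSI ESCs, with ICSI ESC 1 again highest and ICSI ESC 2 lowest. CCL2, which attracts monocytes, read 271, 1193, 103, 650 and 1315 in PG-haESCs, against 13020, 62.5 and 988 in ICSI ESCs and 419 and 404 in the labelled fibroblasts. CXCL8, interleukin-8, which attracts neutrophils, read 229, 1369, 137, 1911 and 225 in PG-haESCs, against 9946, 85.6 and 1285 in ICSI ESCs and 45.7 and 46.9 in the labelled fibroblasts. PG-haESC 2, PG-haESC 4 and ICSI ESC 3 were above PG-haESC 1 and 3 for both chemokines, and PG-haESC 5 for CCL2 only. TNFRSF11B, osteoprotegerin, a secreted decoy receptor of TNFSF11, read 247, 732, 88.2, 2170 and 1677 in PG-haESCs, against 7994, 77.5 and 383 in ICSI ESCs and 76.5 and 60.7 in the labelled fibroblasts. IL1B, interleukin-1 beta, read 212, 1160, 127, 2844 and 203 in PG-haESCs, against 7520, 93.6 and 590 in ICSI ESCs and 142 and 73.5 in the labelled fibroblasts. These 5 genes, chosen for their span, were highest on ICSI ESC 1 and lowest among ESC arrays on ICSI ESC 2. Of all 67 genes above the median on at least 4 ESC arrays, 20 (29.9%) were highest on ICSI ESC 1, and so were 1723 of the 10017 genes in all (17.2%).

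None of the 5 was called in any comparison, with adjusted p values from 0.074 (CXCL8, ICSI ESC against labelled fibroblast) to 1.0. Between PG-haESCs and ICSI ESCs the change in IL6 was -1.18 ± 1.65, and without ICSI ESC 1 it was 1.13 ± 1.05 (adjusted p 0.78). The sign of CCL2 (-0.71, and 1.08 without that array), CXCL8 (-1.34 and 0.37) and IL1B (-0.90 and 0.85) also turned, and that of TNFRSF11B (0.10 and 1.83) did not. The mean log2 signal of the 9 fibroblast markers was 12.68 on ICSI ESC 1 and 8.13 on ICSI ESC 2, between 8.29 and 11.31 on the PG-haESC arrays, and 13.07 and 13.09 on the arrays labelled fibroblast. ICSI ESC 1 was thus also the highest and ICSI ESC 2 the lowest ESC array for those markers. The labelled fibroblasts, highest in the markers, were low in IL6, CXCL8, TNFRSF11B and IL1B. ICSI ESC 1 was also highest for CSF2, a granulocyte and macrophage growth factor (707, and at most 79.5 on every other array), and CSF3, a granulocyte growth factor (632, and at most 349), both chosen after their values were seen. The part of feeder or other fibroblast-like cells in these signals was not tested.

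**Figure D2:**
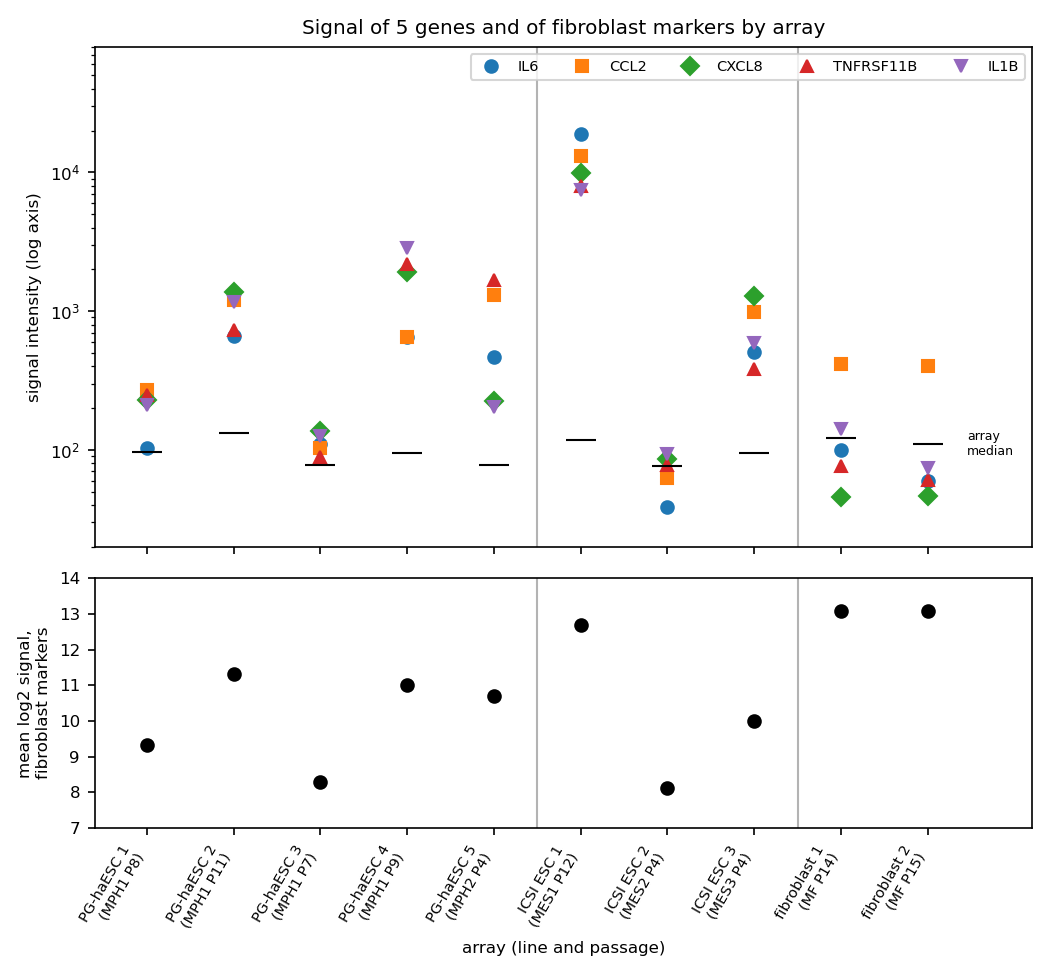
Signal of IL6, CCL2, CXCL8, TNFRSF11B and IL1B on each array (upper panel, log axis, with dashes at the array medians) and the mean log2 signal of 9 fibroblast markers (lower panel). ICSI ESC 1 is highest for all 5 genes and ICSI ESC 2 is lowest among the ESC arrays, and the arrays labelled fibroblast are highest for the markers but low for all genes but CCL2.

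Against the arrays labelled fibroblast, more of these genes were called lower than higher in the ESCs. CCL27, IL20RB, IL18 and IL2 were among those lower, and CCL25, CCL20, IL17F and TLR7 among those higher. Of the 103 genes, 10 were called higher and 26 lower in PG-haESCs, and 11 higher and 30 lower in ICSI ESCs. In all 35.0% of the genes were called in PG-haESCs and 39.8% in ICSI ESCs, against 40.3% and 39.6% of all genes tested. In PG-haESCs this was 9.71% higher and 25.2% lower, where 23.0% and 17.3% of all genes tested were called. In ICSI ESCs it was 10.7% higher and 29.1% lower, where 22.6% and 17.0% of all genes were called. The median log2 change was -0.73 in PG-haESCs and -0.69 in ICSI ESCs, beside 0.06 and 0.08 over all genes. Both comparisons share the same 2 labelled fibroblast arrays. The counts describe the genes tested, since 10 genes passed the filter only through the labelled fibroblast arrays, and 7 and 8 of those were among the genes called lower. Without fibroblast 1, the call count in ICSI ESCs was 25 in place of 41, and without fibroblast 2 it was 27.

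Calls were also counted by family, with no test of a difference between families. The shares of all genes called were 23.0% higher and 17.3% lower in PG-haESCs, and 22.6% higher and 17.0% lower in ICSI ESCs. Among interleukin ligands 2 were called higher (8.33%) and 10 lower (41.7%) of 24 in PG-haESCs, and 2 higher (8.33%) and 12 lower (50%) in ICSI ESCs. Of those called lower, IL7, IL18, IL33, IL34 and IL36RN, and in ICSI ESCs also IL1A, had passed the filter only through the labelled fibroblast arrays. Interleukin receptors and binding proteins had 2 higher and 8 lower (29.6%) of 27 in PG-haESCs, and 2 higher and 7 lower (25.9%) in ICSI ESCs. CCL chemokines had 2 higher in both groups, with 3 lower in PG-haESCs (18.8%) and 4 in ICSI ESCs (25%), of 16. Of those lower, CCL13 and CCL19 had passed the filter only through the labelled fibroblast arrays, where they are high. The TNF receptor family had 2 higher (16.7%) and 3 lower (25%) of 12 in both groups, and the 3 tested CCR receptors had no call in either.

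**Figure D3:**
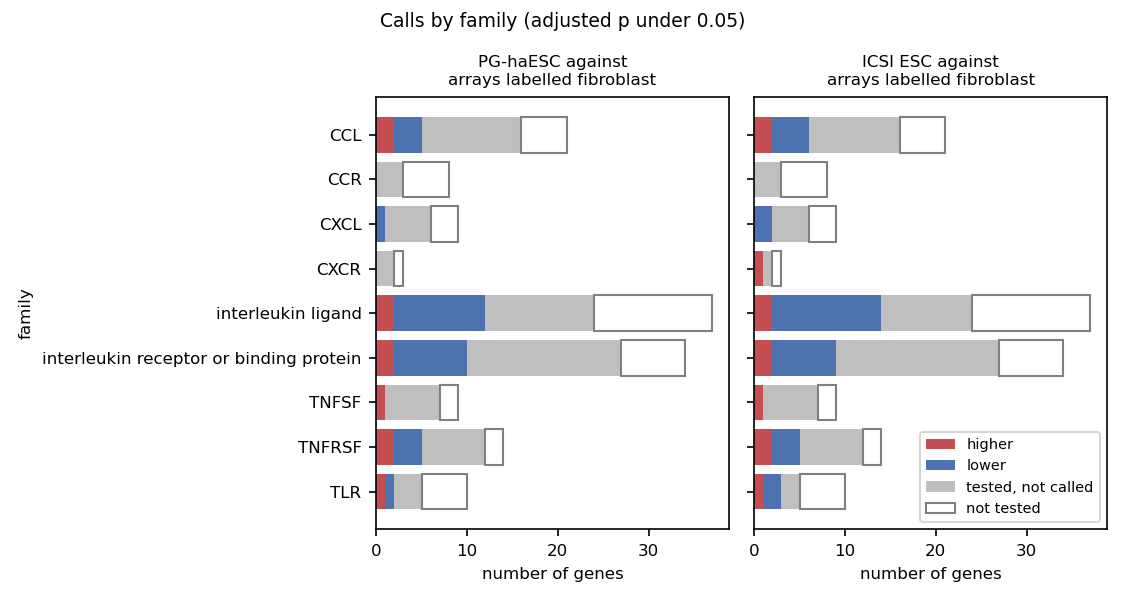
Number of genes called higher (red), called lower (blue), tested but not called (grey) and not tested (white) in each family, for PG-haESC (left) and ICSI ESC (right) against the arrays labelled fibroblast. Interleukin ligands hold the most genes called lower, 10 of 24 tested in PG-haESCs (41.7%) and 12 in ICSI ESCs (50%). Of all genes tested, 17.3% and 17.0% were called lower. Among these ligands, IL7, IL18, IL33, IL34 and IL36RN, and in ICSI ESCs IL1A, passed the filter only through the labelled fibroblast arrays.

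Genes higher in the ESCs came from several families. CCL25 read 13363, 9425, 11919, 10996 and 12470 in PG-haESCs and 9051, 11386 and 12064 in ICSI ESCs, against 3599 and 3571 in the labelled fibroblasts. The ESC arrays were all well above both labelled fibroblast arrays, by 3.26-fold in PG-haESCs (log2 change 1.70 ± 0.21, adjusted p 6.5e-05) and 3-fold in ICSI ESCs (1.58 ± 0.21, adjusted p 0.00012). This CCL25 probe set may match other transcripts. Other tested ones were also called higher (1.36 and 1.38 in PG-haESCs, 0.99 and 1.39 in ICSI ESCs). Another, at 7.92 to 158 in PG-haESCs and 32.1 and 22.1 in the labelled fibroblasts, did not pass the filter. TLR7 was higher by 0.99 ± 0.16 in PG-haESCs (adjusted p 0.00042) and 1.36 ± 0.16 in ICSI ESCs (4.5e-05), with 3986 and 4259 in the labelled fibroblasts. A second TLR7 probe set was also called higher (1.55 in PG-haESCs and 1.13 in ICSI ESCs), and the remaining one did not pass the filter. CCL20, the ligand of CCR6, read 1801, 561, 1078, 1202 and 994 in PG-haESCs and 456, 644 and 868 in ICSI ESCs, against 225 and 195. Its change was 2.32 ± 0.49 in PG-haESCs (adjusted p 0.0029) and 1.60 ± 0.49 in ICSI ESCs (0.025). The ICSI ESC call did not hold without an intensity trend (adjusted p 0.059), without ICSI ESC 3 (0.077) or without either labelled fibroblast array (0.056 and 0.088). TNFRSF12A rose by 2.20 ± 0.35 in ICSI ESCs (adjusted p 0.00044) and 1.05 ± 0.35 in PG-haESCs (0.034). In PG-haESCs that call was lost with lines averaged first (adjusted p 0.13), with no intensity trend (0.086) and without PG-haESC 1 (0.06), PG-haESC 3 (0.0509), fibroblast 1 (0.1) or fibroblast 2 (0.08).

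Of the interleukin-17 system, the genes called higher in both ESC groups were IL17F and IL17RD. IL17F, an interleukin-17 ligand, read 419, 436, 333, 362 and 590 in PG-haESCs and 369, 466 and 525 in ICSI ESCs, against 44.8 and 113 in the labelled fibroblasts. It rose by 2.63 ± 0.46 in PG-haESCs (adjusted p 0.00089) and 2.66 ± 0.47 in ICSI ESCs (0.00091), and 1 of its 2 other probe sets was called in both groups. The IL17F probe set used and that one may both match other transcripts. The last, without that limit, was called in ICSI ESCs only (1.97, adjusted p 0.019, against 1.42, adjusted p 0.075, in PG-haESCs). IL17RD, a receptor family member also known as an inhibitor of FGF signalling, read 232, 194, 220, 206 and 191 in PG-haESCs and 212, 304 and 256 in ICSI ESCs, against 23.6 and 65.1. Both labelled fibroblast arrays were under their medians, which makes it at least 1.8-fold higher in PG-haESCs (adjusted p 0.0037) and at least 2.2-fold higher in ICSI ESCs (0.0018). With signals raised to the array median its PG-haESC call was lost (0.83, adjusted p 0.078). Of the other interleukin-17 genes tested, IL17D was called lower in both ESC groups and IL17B, IL17C, IL25, IL17RA, IL17RB, IL17RC, IL17RE and IL17REL in neither.

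TNFSF11, known as RANKL, the ligand that drives osteoclast formation, read 176, 196, 193, 172 and 44.4 in PG-haESCs and 119, 92.2 and 79.3 in ICSI ESCs, against 7.17 and 30.3 in the labelled fibroblasts. PG-haESC 5 stood apart from the other PG-haESC arrays. It was at least 1.2-fold higher in PG-haESCs (adjusted p 0.02), and in ICSI ESCs (log2 change 2.70 ± 0.89, adjusted p 0.035) the bound was under 1, so no fold is given. Setting signals to at least the array median turned the ICSI ESC change to -0.19 (adjusted p 0.79) and left 0.27 (0.68) in PG-haESCs. Both calls were also lost with lines averaged first (adjusted p 0.11 in PG-haESCs and 0.081 in ICSI ESCs) and without fibroblast 1 (0.11 and 0.18). The PG-haESC call was lost without PG-haESC 2 (0.061), and the ICSI ESC call with an offset of 32 (0.06), without PG-haESC 1, 2 or 3 or ICSI ESC 2 or 3 (0.0521 to 0.064) and without the arrays of highest spike-in signal (0.07). A second probe set gave larger changes, 6.62 in PG-haESCs (adjusted p 3.1e-05) and 6.37 in ICSI ESCs (4.8e-05).

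IL13RA2, a decoy receptor for interleukin-13, read 509, 493, 223, 238 and 114 in PG-haESCs and 923, 182 and 192 in ICSI ESCs, against 33.5 and 39.1 in the labelled fibroblasts. It was at least 2.36-fold higher in PG-haESCs (adjusted p 0.022) and at least 2.75-fold higher in ICSI ESCs (0.011). Both calls were lost with lines averaged first (0.15 and 0.059) and with signals raised to the array median (0.35 and 0.17), and the PG-haESC call without PG-haESC 2 (0.055), fibroblast 1 (0.07) or fibroblast 2 (0.0521). IL23A, a subunit of interleukin-23, read 231, 291, 280, 245 and 206 in PG-haESCs and 353, 354 and 221 in ICSI ESCs, against 137 and 79.2. Its change was 1.21 ± 0.42 in PG-haESCs (adjusted p 0.041) and 1.53 ± 0.42 in ICSI ESCs (0.014). The IL23A calls did not hold with lines averaged first (0.16 and 0.0538) or without fibroblast 2 (0.21 and 0.09), nor the PG-haESC call without PG-haESC 1, 2, 3 or 4 (0.055 to 0.088) or with signals raised to the array median (0.056). TNFRSF21, death receptor 6, rose by 0.80 ± 0.28 in PG-haESCs (606 to 998, against 418 and 510 in the labelled fibroblasts, adjusted p 0.0477) and by 1.17 ± 0.29 in ICSI ESCs (934 to 1221, adjusted p 0.0075). The PG-haESC call of TNFRSF21 was just past the threshold and was lost under 12 alternatives, 8 of which left out 1 array each (PG-haESC 2, 3, 4 or 5, ICSI ESC 2 or 3, or either labelled fibroblast array), with adjusted p values up to 0.2.

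CXCR4 was called higher in ICSI ESCs (3.09 ± 1.07, adjusted p 0.043) and not in PG-haESCs (1.45 ± 1.07, adjusted p 0.34), and CXCL12 was called lower in ICSI ESCs (-1.39 ± 0.37, adjusted p 0.012) and not in PG-haESCs (0.02, with 880 to 1049 in the labelled fibroblasts, adjusted p 0.98). The test of the difference between the ESC groups, given above, passed the threshold for neither gene. The CXCR4 call was lost with a 75th percentile filter (adjusted p 0.06), with no intensity trend (0.095), with robust variance (0.11) and without PG-haESC 1 (0.063), PG-haESC 3 (0.055), ICSI ESC 2 (0.11), fibroblast 1 (0.11) or fibroblast 2 (0.1). That of CXCL12 was lost with arrays centred on their medians (0.15), with probe sets of a gene averaged (0.53) and without fibroblast 2 (0.062).

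Among the genes lower in the ESCs were ligands and antagonists of the interleukin-1 family. Grouped by textbook family after the values were seen, 8 of 10 of these were tested, of which 6 were called lower in PG-haESCs and 7 in ICSI ESCs. The shares of all genes called lower were 17.3% in PG-haESCs and 17.0% in ICSI ESCs. IL18, IL33, IL36RN and IL1A had passed the filter only through the labelled fibroblast arrays, where they are high, and make up 3 of the 6 and 4 of the 7, so these counts support nothing about the family. IL1B, described above, was called in neither group and IL1A in ICSI ESCs only. IL1RN, the interleukin-1 receptor antagonist, read 10.9, 74.5, 33.9, 65.7 and 2.28 in PG-haESCs and 178, 31 and 37.9 in ICSI ESCs, against 1547 and 1515 in the labelled fibroblasts. It was at least 16.3-fold lower in the PG-haESC group (adjusted p 0.0033) and lower in ICSI ESCs (log2 change -4.69 ± 1.44, adjusted p 0.025), where ICSI ESC 2 and 3 were under their medians. The ICSI ESC call was lost with lines averaged first (0.078) and without ICSI ESC 2 or 3 (0.064 each), fibroblast 1 (0.086) or fibroblast 2 (0.084). The other tested IL1RN probe set was called in neither group (-3.77, adjusted p 0.083, in PG-haESCs and -4.18, adjusted p 0.059, in ICSI ESCs). The remaining one did not pass the filter, with 101 and 100 in the labelled fibroblasts.

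IL18, which is stored as a precursor and released on inflammasome activation, read 35.7 to 68.9 in PG-haESCs and 43.3 to 52.2 in ICSI ESCs, against 924 and 945 in the labelled fibroblasts. The difference was at least 9.92-fold in PG-haESCs (adjusted p 0.00012) and at least 9.83-fold lower in ICSI ESCs (0.00016). IL33, a nuclear alarmin, read 20.9 to 89.3 in PG-haESCs and 36.6 to 49.2 in ICSI ESCs, against 550 and 680, at least 6.49-fold lower in the PG-haESC group (adjusted p 0.0021) and at least 6.43-fold lower in ICSI ESCs (0.0026). IL37, an anti-inflammatory member, read 36 to 272 in PG-haESCs and 105 to 123 in ICSI ESCs, against 1719 and 1866, with log2 changes of -4.01 ± 0.82 (adjusted p 0.0024) and -3.96 ± 0.83 (0.0028). IL36RN, the antagonist of the interleukin-36 receptor, read 6.36 to 96 in PG-haESCs and 34.6 to 62.4 in ICSI ESCs, against 593 and 659, at least 6.63-fold lower in the PG-haESC group (adjusted p 0.0052) and at least 6.57-fold lower in ICSI ESCs (0.034). On every ESC array these 4 genes were far below both labelled fibroblast arrays, but all except IL37 had passed the filter only through those arrays. IL36B was also called lower in both ESC groups, IL1A only in ICSI ESCs (-2.99, adjusted p 0.044, against -2.65, adjusted p 0.068, in PG-haESCs), and the decoy receptor IL1R2 in both (-1.05 in PG-haESCs and -1.60 in ICSI ESCs).

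Both chains of the receptor for interleukins 19, 20 and 24 were lower in the ESCs. IL20RB read 252, 147, 133, 155 and 73.2 in PG-haESCs and 81.2, 181 and 166 in ICSI ESCs, against 8605 and 8706 in the labelled fibroblasts. It was 67.6-fold lower in PG-haESCs (-6.08 ± 0.51, adjusted p 3.7e-06) and 64.3-fold lower in ICSI ESCs (-6.01 ± 0.52, adjusted p 4.5e-06). IL20RA read 233, 155, 71, 108 and 105 in PG-haESCs and 150, 51 and 76 in ICSI ESCs, against 1141 and 1159 in the labelled fibroblasts. Its change was -3.25 ± 0.64 in PG-haESCs (adjusted p 0.0018) and -3.78 ± 0.64 in ICSI ESCs (0.00071). Every ESC array was below both labelled fibroblast arrays for both chains.

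Among chemokines, CCL27, which keratinocytes secrete to attract T cells to skin, showed the smallest p of all 103 genes. It read 481, 354, 387, 440 and 306 in PG-haESCs and 256, 318 and 357 in ICSI ESCs, against 9459 and 9840 in the labelled fibroblasts. The ESC arrays were close to one another and far below the labelled fibroblasts, 25.7-fold in PG-haESCs (-4.68 ± 0.27, adjusted p 2e-07) and 31.4-fold in ICSI ESCs (-4.97 ± 0.27, adjusted p 1.6e-07). CCL13, a monocyte and eosinophil attractant, read 7.76 to 56.3 in PG-haESCs and 8.35 to 35.4 in ICSI ESCs, against 981 and 1116 (at least 11.1-fold lower in the PG-haESC group, adjusted p 0.0036, and at least 11-fold lower in ICSI ESCs, adjusted p 0.0018). CCL19, the ligand of CCR7, read 5.32 to 40.2 in PG-haESCs and 13 to 25.4 in ICSI ESCs, against 366 and 405, at least 4.08-fold lower in the PG-haESC group (adjusted p 0.0079) and at least 4.05-fold lower in ICSI ESCs (0.013). The CCL19 calls were lost with lines averaged first (0.063 in PG-haESCs and 0.075 in ICSI ESCs), and that in ICSI ESCs without fibroblast 1 (0.059) or fibroblast 2 (0.069). CXCL11, a ligand of CXCR3, was called lower in both groups as well, with log2 changes of -2.19 in PG-haESCs (adjusted p 0.0039) and -1.79 in ICSI ESCs (0.013). CCL4L1 was called lower in ICSI ESCs only (-2.12, adjusted p 0.045), and its second probe set showed -0.07 there.

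IL34, IL7, IL16 and IL2 were also lower in the ESCs. IL34, a second ligand of the CSF1 receptor, read 11 to 37.7 in PG-haESCs and 14.2 to 28.6 in ICSI ESCs, against 449 and 596 in the labelled fibroblasts (at least 5.49-fold lower in the PG-haESC group, adjusted p 0.003, and at least 5.44-fold lower in ICSI ESCs, adjusted p 0.0046). IL7, a lymphocyte survival factor, read 6.73 to 24.8 in PG-haESCs and 2.68 to 66.3 in ICSI ESCs, against 437 and 499 (at least 4.96-fold lower in the PG-haESC group, adjusted p 0.019, and at least 4.91-fold lower in ICSI ESCs, adjusted p 0.029). Both IL7 calls were lost with lines averaged first (0.14 and 0.11), without fibroblast 1 (0.073 and 0.1) and without fibroblast 2 (0.085 and 0.12), and that in ICSI ESCs without ICSI ESC 3 (0.056). IL16, a ligand of CD4, read 23 to 125 in PG-haESCs and 47 to 129 in ICSI ESCs, against 692 and 532, at least 6.44-fold lower in the PG-haESC group (adjusted p 0.008) with a log2 change of -2.99 ± 0.85 in ICSI ESCs (0.017). No ESC array reached the labelled fibroblasts for any of these 3 genes. IL34 and IL7 had passed the filter only through the labelled fibroblast arrays, where they are high, so their separation supports nothing. The other IL7 probe sets did not pass the filter. IL2, the T cell growth factor, read 915, 811, 1170, 1215 and 1319 in PG-haESCs and 1206, 1121 and 520 in ICSI ESCs, against 8319 and 7640, with changes of -2.85 ± 0.36 (adjusted p 8.5e-05) and -3.16 ± 0.37 (4.4e-05). A second IL2 probe set was called lower too, and the remaining one did not pass the filter. The leukocyte markers given above were high on the same 2 arrays, and their part in these differences was not tested.

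Receptors lower in the ESCs included 3 of the TNF receptor family. TNFRSF19 read 6872 and 6547 in the labelled fibroblasts and changed by -2.06 ± 0.49 in PG-haESCs (adjusted p 0.0061) and -3.20 ± 0.49 in ICSI ESCs (0.00034). Its PG-haESC call was lost with arrays centred on their medians (0.055) and both calls with probe sets of a gene averaged (-0.89, adjusted p 0.35, in PG-haESCs and -1.74, adjusted p 0.069, in ICSI ESCs). TNFRSF25 read 123, 83.5, 155, 124 and 109 in PG-haESCs and 40.3, 90.3 and 18.9 in ICSI ESCs, against 1224 and 993, with changes of -3.26 ± 0.65 (adjusted p 0.002) and -4.75 ± 0.65 (0.00015). The TNFRSF25 probe set used may match other transcripts, and the others of that gene did not pass the filter. TNFRSF1B, a receptor for TNF, read 405 to 987 in PG-haESCs and 538 to 745 in ICSI ESCs, against 1877 and 1913 in the labelled fibroblasts, and was called lower in both (-1.61 and -1.59). IL12RB2 read 512 to 640 in PG-haESCs and 498 to 622 in ICSI ESCs, against 1284 and 1289, with changes of -1.17 ± 0.24 (adjusted p 0.0023) and -1.16 ± 0.24 (0.0025). Both IL12RB2 calls were lost with arrays centred on their medians (0.15 and 0.14). Its other tested probe sets differed widely. In PG-haESCs and ICSI ESCs they gave -6.28 and -7.19 (called), -1.05 and -0.97 (not called), and 0.97 and 1.27 (not called).

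The genes called lower in PG-haESCs and not described above were IL6R, IL10RA, IL11RA, IL17D and TLR1. IL17D, an interleukin-17 family ligand, read 123 to 253 in PG-haESCs and 90.4 to 174 in ICSI ESCs, against 998 and 1101 in the labelled fibroblasts (-2.65 and -2.99). IL11RA, the interleukin-11 receptor, read 449 to 513 in PG-haESCs and 416 to 608 in ICSI ESCs, against 1175 and 1172 (-1.27 and -1.18). IL10RA, a chain of the interleukin-10 receptor, changed by -2.33 and -2.44, and TLR1, which pairs with TLR2, by -2.52 and -2.47. IL15, a lymphocyte growth factor, was called in ICSI ESCs only (at least 2.16-fold lower, adjusted p 0.045, and -1.63, adjusted p 0.14, in PG-haESCs). The flagellin sensor TLR5 was called lower in ICSI ESCs (-1.81 ± 0.60, adjusted p 0.036) and had -1.31 (adjusted p 0.11) in PG-haESCs, where it passed under 4 alternatives (0.018 to 0.0488), 1 of them without ICSI ESC 1 (0.03). The TLR5 call was lost with lines averaged first (0.13), quantile normalization (0.069), no intensity trend (0.0501) or only the groups compared (0.0511), and without PG-haESC 1 or 3, ICSI ESC 2 or 3 or either labelled fibroblast array (0.0508 to 0.15). IL6R, the interleukin-6 receptor, had -1.85 (adjusted p 0.014) in PG-haESCs and -1.33 (0.062) in ICSI ESCs. In at least 1 of the 2 comparisons 42 genes were called. Of these, 35 were called in both and in the same direction, 10 higher and 25 lower, with 1 in PG-haESCs alone and 6 in ICSI ESCs alone. Both comparisons share the same labelled fibroblast arrays, and the share of all genes called in both was not counted. Among the 25, CCL13, CCL19, IL18, IL33, IL34, IL36RN and IL7 had passed the filter only through those arrays. These counts therefore support nothing about a likeness of the ESC groups.

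**Figure D4:**
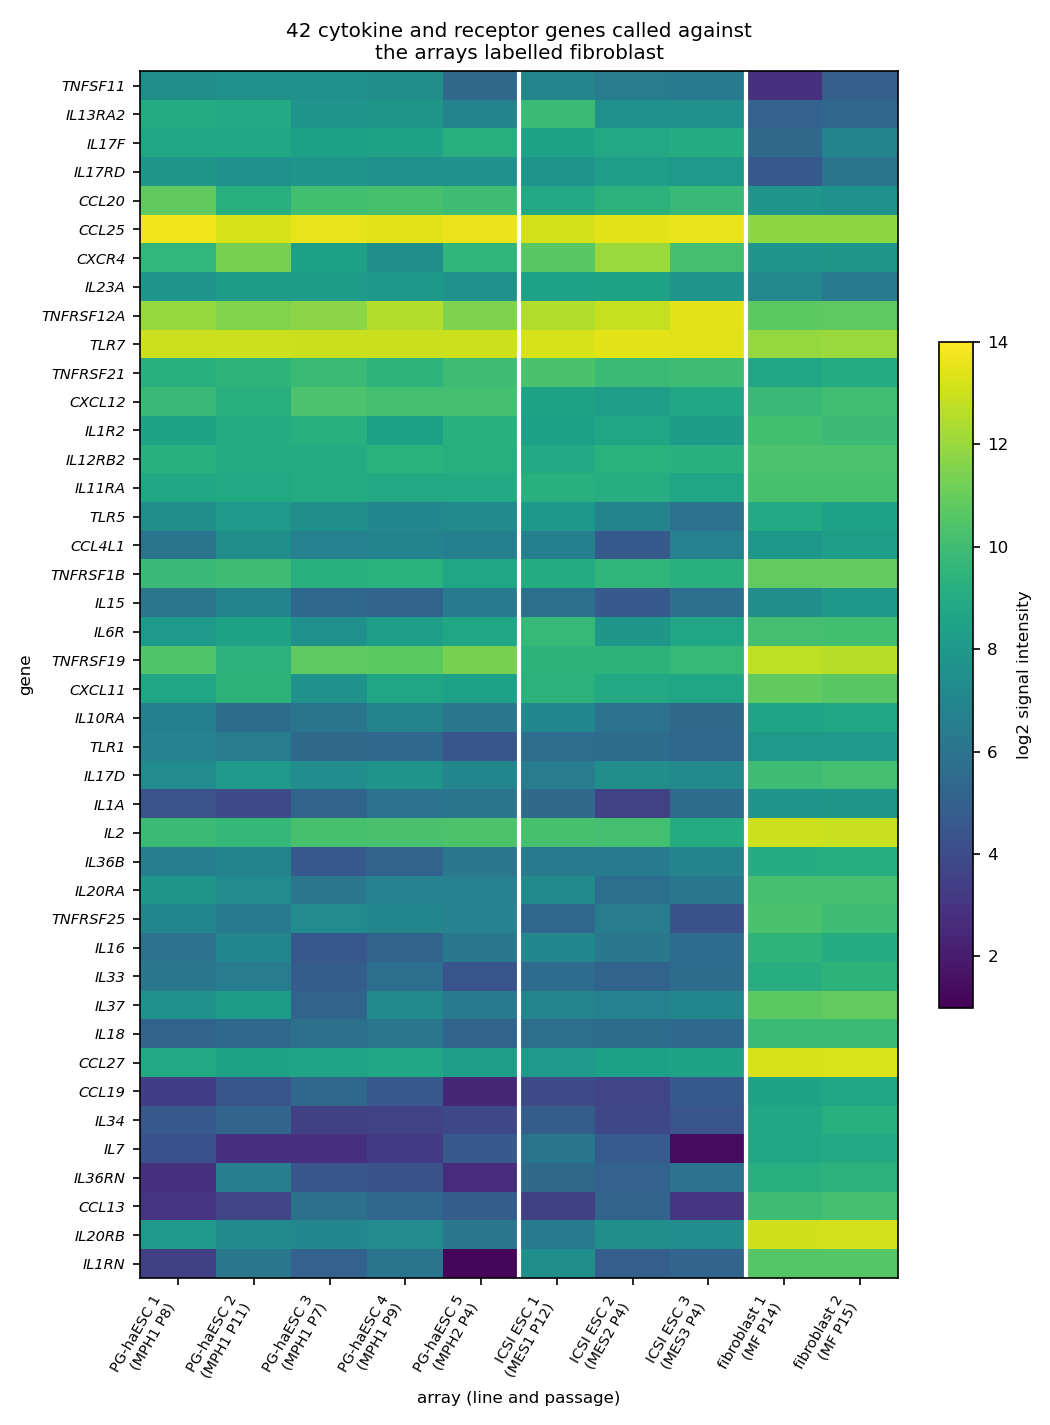
Log2 signal of the 42 genes called in PG-haESC or ICSI ESC against the arrays labelled fibroblast, with genes in rows ordered by their PG-haESC change and the 10 arrays in columns. The 2 labelled fibroblast columns on the right are dark in the top rows (TNFSF11, IL13RA2, IL17F, IL17RD) and bright in the bottom rows (IL1RN, IL20RB, CCL13).

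Of the brightest tested genes of each family, some were called in no comparison on the probe set used. CXCL6 read 1430 to 2275 in PG-haESCs and 1102 to 1546 in ICSI ESCs, against 2121 and 2064 in the labelled fibroblasts, with changes of -0.25 ± 0.25 (adjusted p 0.5) and -0.67 ± 0.26 (0.061). The ICSI ESC change of CXCL6 passed the threshold under 5 alternatives (adjusted p 0.025 to 0.0466), among them leaving out PG-haESC 1 (0.038) and ICSI ESC 2 (0.0466). TNFSF18 read 6779 to 12510 in PG-haESCs and 7935 to 9615 in ICSI ESCs, against 7019 and 7214 (0.44 ± 0.25, adjusted p 0.2, and 0.27 ± 0.25, adjusted p 0.45), and its PG-haESC change passed without PG-haESC 5 (0.68, adjusted p 0.012). IL13RA1 read 1136 to 2925 in PG-haESCs and 1446 to 2402 in ICSI ESCs, against 1779 and 1743, and its 95% intervals ran from -0.79 to 1.08 and from -0.75 to 1.14. Another IL13RA1 probe set was called higher in PG-haESCs (1.19, adjusted p 0.028) and in ICSI ESCs (1.59, adjusted p 0.0064). The chemokine receptor CCR6 read 82.5 to 213 in PG-haESCs and 57.9 to 224 in ICSI ESCs, against 162 and 165, and CCR7 read 14.8 to 258 in PG-haESCs and 93.3 to 128 in ICSI ESCs, against 192 and 109. The groups overlapped for both receptors.

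How a gene reads depended on its probe set. Of the 103 genes, 38 had 2 or more tested probe sets, and 21 of these had a probe set called against the labelled fibroblasts. Genes called in PG-haESCs had 21 other tested probe sets, of which 12 were called in the same direction, 9 were not called and 0 were called in the opposite one. In ICSI ESCs these numbers were 24, 13, 11 and 0. Conversely, 5 genes not called in PG-haESCs had another probe set that was, and 4 in ICSI ESCs. For TNFSF10, the death ligand TRAIL, the probe set used read 97.5, 294, 287, 243 and 247 in PG-haESCs and 254, 178 and 259 in ICSI ESCs, against 462 and 472, with changes of -1.07 (adjusted p 0.15) and -1.04 (0.17). A second one read 8.23 to 73.1 in PG-haESCs and 44.6 to 111 in ICSI ESCs, against 5330 and 4615, and gave -7.27 (adjusted p 9.4e-05) and -6.15 (0.00035). The remaining tested one gave -6.88 (adjusted p 0.00038) and -8.13 (0.00012). Averaged over its probe sets, TNFSF10 was called in both groups (-5.07 and -5.11). CCL18, a macrophage and dendritic cell chemokine, likewise had -1.33 (adjusted p 0.61) and -0.70 (0.8) on the probe set used and -5.08 (adjusted p 0.0012) and -4.98 (0.0015) on another. The remaining genes were IL13RA1 and TNFSF13B in both groups and TLR4 in PG-haESCs only. The decoy receptor IL1R2 changed by -1.05 in PG-haESCs on the probe set used and by -5.16 and -3.34 on 2 others, all called.

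**Figure D5:**
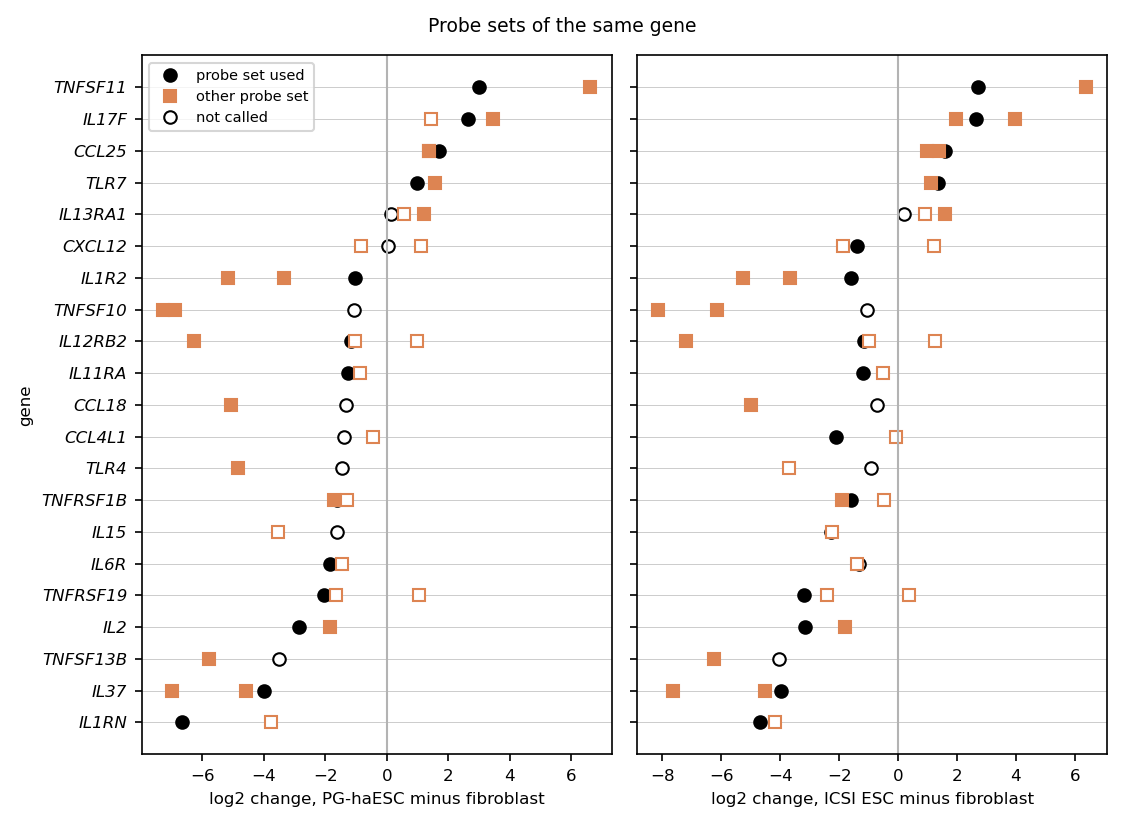
Log2 change of each tested probe set of 21 genes, for PG-haESC (left) and ICSI ESC (right) minus the arrays labelled fibroblast (black circles for the probe set used, orange squares for others, open symbols where not called). TNFSF10, CCL18 and IL1R2 have other probe sets far to the left of the one used, and TNFSF11 one far to the right.

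The pathways behind these receptors were read from 3 lists of genes outside the symbol rule. No gene of any list was called between PG-haESCs and ICSI ESCs. Against the labelled fibroblasts, 23.0% of all genes were called higher and 17.3% lower in PG-haESCs, and 22.6% higher and 17.0% lower in ICSI ESCs. Of 26 tested adaptors of Toll-like and interleukin-1 receptors and NF-kB genes, 3 were called higher (11.5%) and 8 lower (30.8%) in PG-haESCs, and 4 (15.4%) and 6 (23.1%) in ICSI ESCs, with median changes of -0.67 and -0.43. IKBKB, a kinase that activates NF-kB, read 703 to 1108 in PG-haESCs and 691 to 863 in ICSI ESCs, against 4162 and 4260, with changes of -2.31 ± 0.24 (adjusted p 1.5e-05) and -2.41 ± 0.24 (1.3e-05). IRAK1, a kinase of the same receptors, was at least 4.3-fold higher in PG-haESCs (adjusted p 0.00013) and at least 2.95-fold higher in ICSI ESCs (0.00069). TNFAIP3, a feedback inhibitor of NF-kB, read 858, 673, 686, 572 and 883 in PG-haESCs, against 2055, 808 and 1354 in ICSI ESCs, with ICSI ESC 1 again the highest ESC array (-0.81 ± 0.30, adjusted p 0.46). Of 18 tested JAK, STAT and SOCS genes, 3 were called higher (16.7%) and 4 lower (22.2%) in PG-haESCs and 4 and 4 (22.2% each) in ICSI ESCs, near the shares of all genes, with JAK2 (-2.29 ± 0.34, adjusted p 0.00025, and -2.47 ± 0.34, adjusted p 0.00015) among those lower in both. SH2B3, an adaptor that restrains cytokine signalling, read 842 to 2694 in PG-haESCs, against 2880 to 3820 in ICSI ESCs (-1.13 ± 0.32, adjusted p 0.21). Of 35 other chemokine, haematopoietic cytokine and TNF family genes, 2 were called higher (5.71%) and 7 lower (20%) in PG-haESCs and 2 (5.71%) and 4 (11.4%) in ICSI ESCs. CSF1R, the receptor of IL34, read 50.5 to 72.3 in PG-haESCs and 26.4 to 44.1 in ICSI ESCs, against 752 and 803, at least 8.25-fold lower in the PG-haESC group (adjusted p 0.0003) and at least 8.17-fold lower in ICSI ESCs (9.3e-05). MIF, a macrophage cytokine, read 11209 to 14626 in PG-haESCs and 14460 to 18557 in ICSI ESCs, against 6598 and 6886, higher by 0.89 ± 0.19 (adjusted p 0.0035) and 1.26 ± 0.19 (0.00034). Its receptor CD74 fell at least 10.7-fold in PG-haESCs (adjusted p 0.00033) and at least 10.6-fold in ICSI ESCs (0.0019). CSF1R and CD74 had passed the filter only through the labelled fibroblast arrays, where they are high, so the counts of this list describe the genes tested.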

How the data were processed

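RNA of 10 cell samples was measured on Affymetrix Rhesus Macaque arrays, 1 array a sample. The deposited table holds linear signal intensity, made by the authors with MAS5 per the submitters' processing notes; no release of it is named there. All arrays had the same trimmed mean (2% removed at each end), and no counts or detection calls were used. Of 52865 probe sets, 158 controls were left out. Symbols came from the supplied platform annotation, in which 24956 probe sets have 1 symbol, 361 several and 27390 none; those with several were not used. Of the 146 symbols, 142 were found in the assembly T2T-MFA8v1.1. For 12 of these genes the probe set used has a name ending in _s_at or _x_at, so it may match other transcripts.

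The 34139 probe sets above their array's median on at least 2 arrays were compared on the log2 scale with limma 3.58.1 in R 4.3.3. One model held all 10 arrays with a mean per group, the cell line entering as random (correlation 0.29), and an intensity trend (7 residual and 5.37 prior degrees of freedom). Tests were two-sided, and p-values were adjusted over the whole set of probe sets after Benjamini and Hochberg. Values after ± are standard errors. Where every array of the dimmer group was at or under its median, its signals were raised to the median and the fold written as "at least". The procedure was tested on simulated data.

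The genes and lists were chosen with earlier results of these data known. Genes were named by rule: the 12 largest called changes in each direction per comparison, the 8 of smallest p where under 6 were called, the 2 brightest per family, and up to 3 per list by p. Genes named outside it were chosen after their values were seen. The alternatives were other treatments of line, offset, floor, normalization, filter, variance, probe sets and groups, leaving out each array, and 1 chosen after seeing the data, which left out the 2 arrays of highest spike-in signal. Figures were made with Python 3.11.15 and matplotlib 3.10.9.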

Additional observations from a re-analysis of the deposited data

Results flagged for a closer look

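In PG-haESCs, the only group of 4 or more arrays, 40 genes were tested for 1 array far from the other 4, and 2 stood out. TNFSF10 read 97.5 on PG-haESC 1, against 243 to 294 on the other 4, a gap of 0.827 of the group's whole range on the log2 scale. TNFSF11 read 44.4 on PG-haESC 5, the only array of line MPH2, against 172 to 196 on the other 4, a gap of 0.912 of the log2 range. The critical value for 5 arrays is 0.71, and chance gives about 1 such array in 20 genes.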

How the results depend on the processing

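The number of genes called between PG-haESCs and ICSI ESCs, 0 as reported, was 3 with arrays as independent samples, 1 with the description code as the block, 1 with no filter and 2 without the 2 arrays of highest spike-in signal (chosen after seeing the data). Leaving out 1 array at a time gave 0 to 2. Against the labelled fibroblasts, PG-haESCs kept a count within 1.5 times the reported 36 under every alternative run, and leaving out 1 array gave 27 to 43. ICSI ESCs, with 41 as reported, had 27 with a 75th percentile filter and 25 to 46 with 1 array left out. Of the named genes called, 15 of 25 in PG-haESCs and 16 of 28 in ICSI ESCs kept their call under every alternative run. Changes of sign came almost all in genes not called, with small differences. Between PG-haESCs and ICSI ESCs, IL12RB2 had 0.01 with lines averaged first, 0.00 with quantile normalization, 0.04 with arrays centred on their medians and 0.13 with probe sets averaged, and -0.11 to 0.05 with 1 array left out. IL13RA1 had 0.00 with centred arrays and -0.29 to 0.13 with 1 left out. TNFSF10 had 0.01 with lines averaged, 0.01 with centred arrays, 0.03 with probe sets averaged and -0.21 to 0.22 with 1 left out, and TLR7 had 0.02 with probe sets averaged. With 1 array left out, CCL25 ran from -0.01 to 0.20, CCR6 from -0.11 to 0.92, CCR7 from -1.28 to 0.10 and IL2 from -0.08 to 0.51. Between PG-haESCs and the labelled fibroblasts, CCR6 had 0.03 and CXCR3 0.04 with quantile normalization, and CXCL6 had 0.07 with centred arrays and 0.11 with probe sets averaged. CXCL12 had -0.01 with independent arrays, -0.00 with only the groups compared and -0.11 to 0.17 with 1 left out. Between ICSI ESCs and the labelled fibroblasts, CXCR3 had -0.08 with signals raised to the array median, -0.26 without the arrays of highest spike-in signal and -0.30 to 0.36 with 1 left out, TNFSF18 had -0.04 with quantile normalization, and the called gene TNFSF11 had -0.19 with signals raised to the array median. The cause of these changes was not tested. The line correlation could not be estimated with only ICSI ESCs and labelled fibroblasts, and that alternative was fitted without it. No paired analysis was possible because replicate numbers stand only in the titles of the labelled fibroblasts and pair no samples across groups. With 2 labelled fibroblast arrays of 1 code, and no detection calls, low signals limit the precision.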
